A study of Mus musculus with 6 samples.

Results

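The 38 listed Hox genes were followed through 6 single-cell RNA libraries of the mouse lung, among 31053 features in the gene tables. They were chosen by name and not by their values, and all 38 were found in every library. They cover the 4 mammalian Hox clusters: 10 genes of cluster A on chromosome 6, 10 of cluster B on chromosome 11, 9 of cluster C on chromosome 15 and 9 of cluster D on chromosome 2. Levels were read in endothelial cells (ECs) and in mesenchymal cells of all libraries, and also in epithelial and immune cells of the whole lungs.

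The sorted libraries came from Cxcl12DsRed/+ lungs of embryonic days E13.5, E15.5 and E18.5 and of postnatal day 8 (P8), where 1 Cxcl12 allele carries the DsRed reporter. The sort kept EpCAM- CD45- cells that were CD31+ and DsRed+, and the methods add CD31- cells that carried the reporter. The other libraries were unsorted E18.5 lungs, labelled Cxcl12DsRed/DsRed (null) and Cxcl12DsRed/+ (control). Every animal thus carried at least 1 DsRed allele, no library of wild-type lungs was analysed here, and each group had 1 library, so nothing was tested between groups. Lungs entered the sorted libraries only through Cxcl12 reporter cells. The ECs and the mesenchymal cells in them are therefore selected parts of the lung endothelium and mesenchyme.

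Hox genes encode homeodomain transcription factors that give cells a position along the body axis. Within a cluster the genes lie in the order of their paralogue groups, which run from 1 at the anterior end to 13 at the posterior end, and genes of 1 number in different clusters are paralogues. In the lung, Hoxa5 is known for its roles in airway branching and alveolar formation, in which Hoxb5 takes part as its paralogue. Hox proteins bind DNA together with Pbx and Meis cofactors, and retinoic acid is a classic inducer of the anterior genes.

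Cells were gated by UMIs, the molecules counted per gene. An EC held at least 2 UMIs of Pecam1 and Cdh5 and at most 2 of Col1a1 and Col3a1, and a mesenchymal cell held at least 5 UMIs of the collagens and 0 of the endothelial genes. From E13.5 to P8, 161, 8891, 9024 and 8219 cells lay in the endothelial gate and 11122, 1798, 232 and 59 in the mesenchymal one. The library labelled control held 1675 ECs and 4029 mesenchymal cells, and the library labelled null 2543 and 4106. No cell lay in both gates. The libraries totalled 63746333 to 117522172 UMIs, and 135 to 265 barcodes of each also occurred in another library. The 5 endothelial check genes (Kdr, Tek, Emcn, Esam and Egfl7) summed to between 2623 and 4747 CPM in ECs and to between 39.3 and 88.4 CPM in mesenchymal cells, where CPM (molecule counts scaled to a common total) were taken over the UMIs of the gated cells. The 6 mesenchymal check genes (Col1a2, Mfap4, Tcf21, Pdgfra, Lum and Dcn) summed to between 3051 and 12286 CPM in mesenchymal cells and to between 10.5 and 126 CPM in ECs. At P8, however, Lum was at 0 and Dcn at 4.33 CPM in the mesenchymal gate, against 501 and 1580 CPM at E15.5, while Tcf21 stood at 1023 against 29.1 CPM. The makeup of the mesenchymal gate therefore differed between libraries, and its part in the mesenchymal results was not tested. The endothelial gate differed in makeup as well. Its arterial range, defined below, held 123, 4588, 3254 and 1363 cells from E13.5 to P8. In the libraries labelled control and null that range held 169 and 517 cells, and the part of this makeup in the EC results was not tested. Intervals beside levels are exact 95% Poisson intervals and cover counting error only, and a count of 0 is read against the level of 3 counts. Since each molecule gives a single 3′ tag, no length correction was made between genes. How well each gene is captured was not assessed, and comparisons between genes carry that limit.

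Cxcl12, the chemokine gene that carries the reporter, checks the labels. In ECs of the sorted libraries it stood at 1035, 748, 1227 and 1120 CPM from E13.5 to P8. In the whole lungs it went against the labels, at 5.31 CPM (4.18 to 6.65) in ECs and 0.290 CPM in mesenchymal cells of the library labelled control, and at 582 CPM (573 to 592) and 44.7 CPM in those of the library labelled null. The names of the deposited files also give the opposite genotypes.

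The reference sequence just upstream of the start was read for the members on which the results turn. The 250 bases before the RefSeq start (GRCm38.p6, written in the direction of the gene) are shown for Hoxa5, the highest member in ECs, for Hoxb4, the highest cluster B gene in ECs, and for Hoxc4 and Hoxd8, members of clusters C and D that are described in marker ranges of cells. Capitals mark AGGTCA, a half-site of retinoid receptors, or its reverse complement. The windows are chr6:52204588-52204837 on the minus strand for Hoxa5, and on the plus strand chr11:96318017-96318266 for Hoxb4, chr15:103034145-103034394 for Hoxc4 and chr2:74704365-74704614 for Hoxd8.
Hoxa5: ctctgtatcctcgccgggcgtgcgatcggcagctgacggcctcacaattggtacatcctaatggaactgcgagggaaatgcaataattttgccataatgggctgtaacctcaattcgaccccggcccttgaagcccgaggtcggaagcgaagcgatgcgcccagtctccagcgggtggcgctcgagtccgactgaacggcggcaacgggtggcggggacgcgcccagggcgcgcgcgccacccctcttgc
Hoxb4: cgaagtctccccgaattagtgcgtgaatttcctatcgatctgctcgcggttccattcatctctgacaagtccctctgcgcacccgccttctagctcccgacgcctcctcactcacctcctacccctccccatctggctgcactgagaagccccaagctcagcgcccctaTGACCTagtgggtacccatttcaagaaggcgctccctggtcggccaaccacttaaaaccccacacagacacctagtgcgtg
Hoxc4: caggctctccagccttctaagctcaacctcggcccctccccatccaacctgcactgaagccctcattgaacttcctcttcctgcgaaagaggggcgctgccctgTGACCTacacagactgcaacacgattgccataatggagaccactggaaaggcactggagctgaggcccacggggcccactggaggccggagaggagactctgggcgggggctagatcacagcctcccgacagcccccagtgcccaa
Hoxd8: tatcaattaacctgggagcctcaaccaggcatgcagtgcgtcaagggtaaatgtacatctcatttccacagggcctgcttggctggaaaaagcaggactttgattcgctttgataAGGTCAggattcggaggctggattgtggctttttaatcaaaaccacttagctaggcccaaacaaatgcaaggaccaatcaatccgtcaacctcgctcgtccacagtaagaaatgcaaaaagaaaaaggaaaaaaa
Of the 38 members, 22 matched the promoter table, with 24 windows. The half-site was found on either strand in 6 of the 24 windows, among them those of Hoxb4, Hoxc4 and Hoxd8, and in 14% of all 32851 windows of this length. TGATNNAT, the letters of a Pbx-Hox site, were found on either strand in 4 of the 24 windows and in 7.68% of all windows, and none of those shown held it. These letters do not overlap AGGTCA, and a match is a description of the sequence only.

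The clusters lie at 52162417 to 52260880 on chromosome 6 (A, minus strand), 96194316 to 96368256 on chromosome 11 (B), 102921103 to 103036852 on chromosome 15 (C) and 74668310 to 74765142 on chromosome 2 (D) in GRCm38. Several annotated loci overlap on 1 strand, as Hoxa3 does with Hoxa4 and Hoxa5. The last 500 exonic bases, where 3′ tags fall, shared no base with another gene on the same strand for 37 members, and 4.40% for Hoxd4, whose symbol also names a second feature of 6 UMIs.

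Most Hox UMIs in ECs and mesenchymal cells came from clusters A and B. Of the 38, 13 reached 10 CPM in ECs or mesenchymal cells of at least 1 library, namely Hoxa2, Hoxa3, Hoxa4, Hoxa5, Hoxa7, Hoxb2 to Hoxb8 and Hoxc4. Another 10 peaked between 1 and 10 CPM and 15 stayed under 1 CPM in every gate. Hoxa11, Hoxb13, Hoxc11, Hoxc12 and Hoxd11 had no UMI in any barcode, and Hoxd12 had 1 UMI, in a cell outside the gates. All Hox UMIs together made up 248 to 366 CPM in ECs and 350 to 710 CPM in mesenchymal cells, or 1.74 to 2.73 and 2.83 to 5.54 UMIs per cell.

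**Figure D1:**
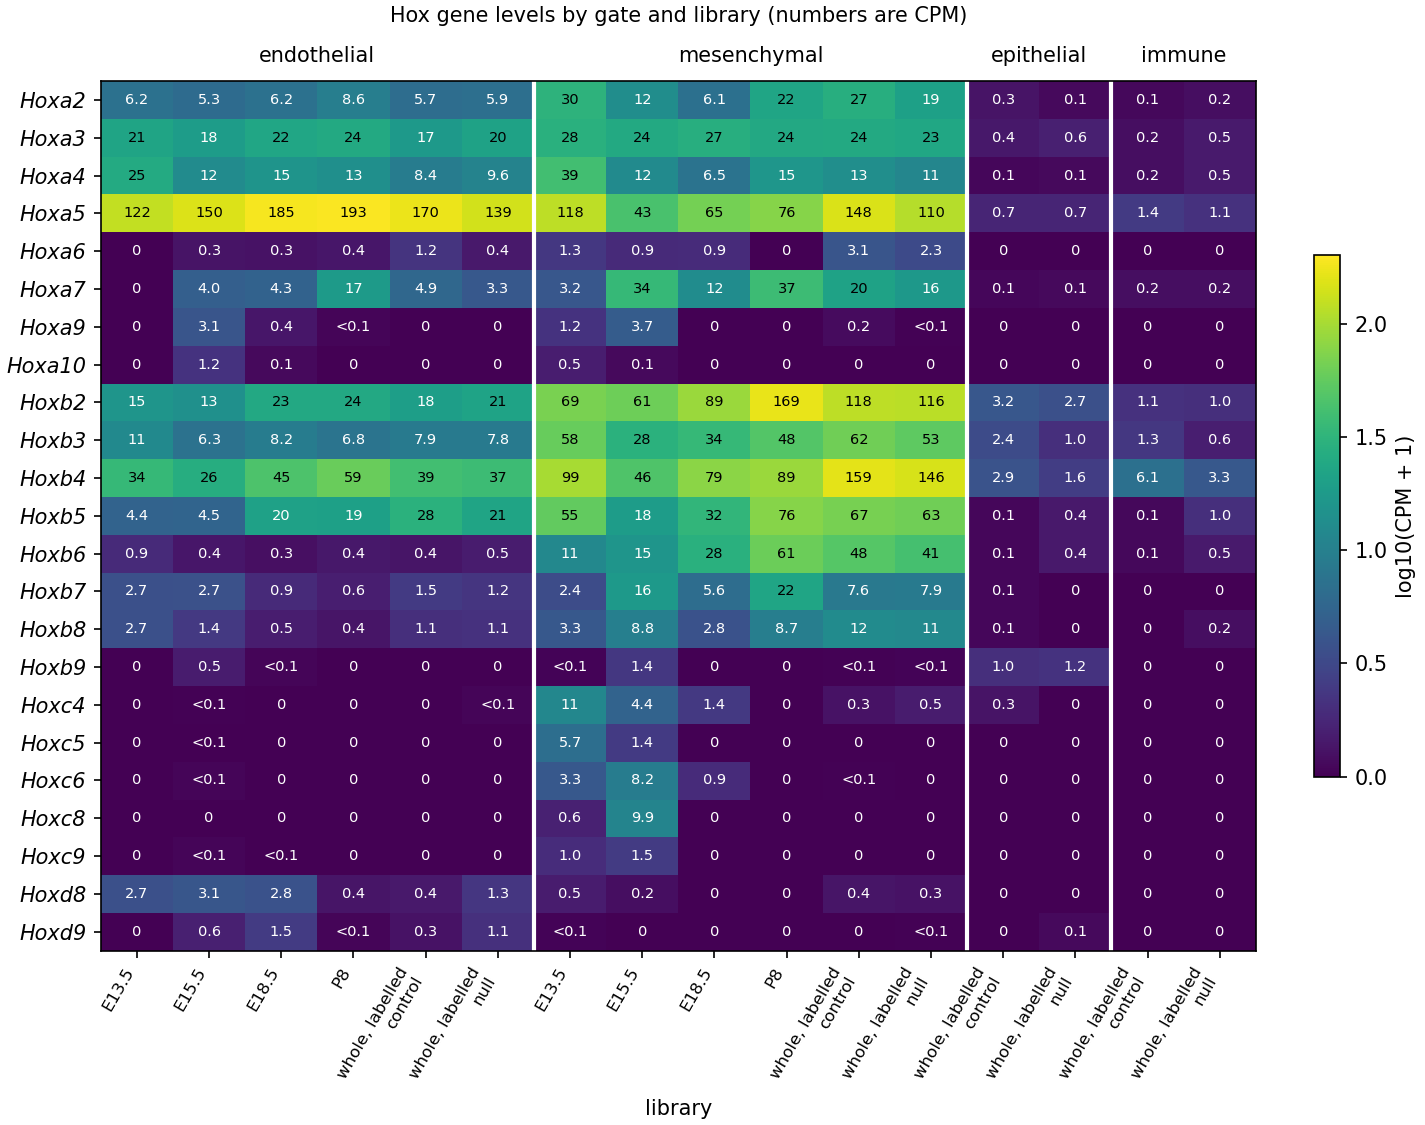
Level in CPM of the 23 Hox genes that reached 1 CPM in a gate, as a heat map with genes in rows and libraries in columns grouped by gate. Color gives log10(CPM + 1) and the number in each field the CPM. Hoxa5 is the brightest row in ECs of every library, and Hoxb6 stays at or below 0.884 CPM in ECs and at 11.0 CPM or more in mesenchymal cells.

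ECs carried a code led by Hoxa5. Its EC levels from E13.5 to P8 were 122 CPM (103 to 144), 150 (147 to 152), 185 (182 to 189) and 193 CPM (189 to 196), with 170 (163 to 177) in the library labelled control and 139 (134 to 143) in that labelled null. Hoxa5 alone made up 49.3% to 59.2% of the EC Hox UMIs. After thinning each cell to 2000 UMIs, a Hoxa5 UMI was found in 20.8%, 25.2%, 30.3% and 31.2% of ECs over the time course. In epithelial and immune cells of the whole lungs the same thinned share was at most 0.333%. Without thinning, the shares were 53.4% to 64.6% of ECs and at most 2.16% of epithelial or immune cells.

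Hoxb4, a paralogue group 4 gene, came next in the unadjusted counts of ECs of all libraries, at 33.6 CPM (23.8 to 46.1), 26.2 (25.1 to 27.3), 44.8 (43.1 to 46.5) and 58.7 CPM (56.8 to 60.7) from E13.5 to P8, and at 39.1 and 37.0 CPM in the libraries labelled control and null. Below it lay Hoxa3, Hoxa4 and Hoxb2, joined by Hoxb5 from E18.5 on. Hoxa3 held a narrow range over all libraries, from 16.7 to 24.2 CPM. Hoxb2, an anterior gene known from hindbrain patterning, lay between 13.3 and 23.7 CPM. Hoxa4 was highest at E13.5 with 24.8 CPM (16.4 to 35.8) and stood between 12.0 and 14.5 CPM at the later times, and at 8.35 and 9.62 CPM in the libraries labelled control and null. Hoxb3 lay between 6.32 and 11.5 CPM and Hoxa2 between 5.35 and 8.58 CPM. Hoxb6, Hoxb7, Hoxb8 and Hoxc4 stayed under 2.8 CPM in ECs of every library. Neighbors in this order were often inseparable: at P8 the intervals of Hoxa3 (23.0 to 25.4) and Hoxb2 (22.5 to 25) overlapped.

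Read as a cluster and paralogue code, ECs had 6, 5, 6 and 7 members at or over 10 CPM from E13.5 to P8, and 5 in each whole lung. Cluster A gave 70.4% of the EC Hox UMIs at E13.5 (95% Clopper-Pearson interval 64.6 to 75.6) and 76.4%, 69.5% and 69.8% at the later times, with 67.9% and 66.0% in the libraries labelled control and null. Cluster B gave nearly all the rest, 21.9% to 33.1%, and cluster D at most 1.53%. Paralogue group 5, which holds Hoxa5, Hoxb5 and Hoxc5, took 51.1% to 61.1% of the EC Hox UMIs in the sorted libraries. Groups 6 and above took 3.21% to 6.93%. The mean paralogue group, weighted by UMIs, lay between 4.33 and 4.64.

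Mesenchymal cells expressed more members and more of cluster B. They had 10, 11, 8 and 11 members at or over 10 CPM from E13.5 to P8, and 11 in each whole lung. Cluster B gave 54.9%, 55.5%, 69.3% and 73.2% of their Hox UMIs over the time course, and 66.8% and 70.7% in the libraries labelled control and null. Cluster A gave 26.8% to 40.8%. Cluster C reached 4.02% at E13.5 and 7.42% at E15.5 and at most 0.598% in every later library. Paralogue groups 2 to 5 were more even than in ECs, with group 2 at 18.2% and group 5 at 33.0% at E13.5. Groups 6 and above took 5.38%, 28.7%, 12.9% and 19.8% of the mesenchymal Hox UMIs from E13.5 to P8.

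**Figure D2:**
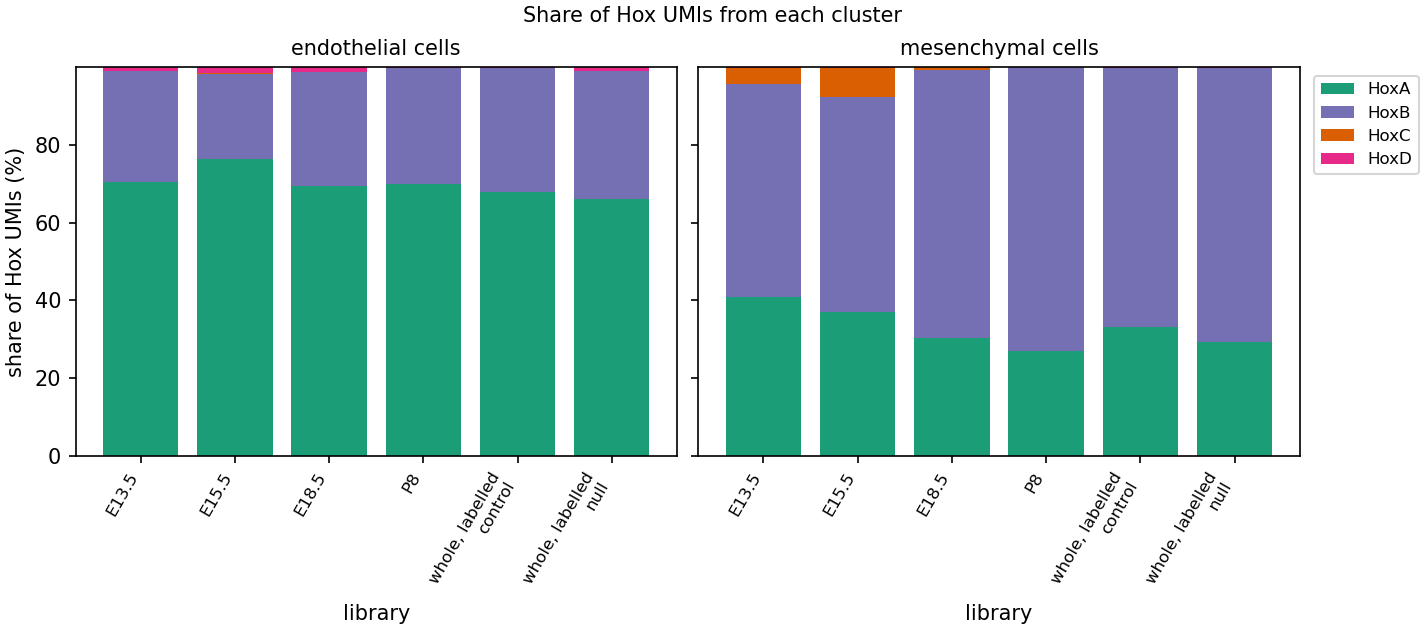
Share of Hox UMIs from clusters A to D, in percent, as stacked bars starting at 0 for each gate and library. Cluster A takes 66.0% to 76.4% in ECs, and cluster B takes 54.9% or more in mesenchymal cells.

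The 3 highest mesenchymal levels were those of Hoxb2, Hoxb4 and Hoxa5 in every library but P8. At P8 Hoxb2 and Hoxb4 led, Hoxa5 and Hoxb5 tied behind them at 75.7 CPM, and Hoxb6 stood above Hoxb3. In the other libraries Hoxb3 and Hoxb5 came next, except at E15.5, where Hoxa7 stood above both at 34.0 CPM and Hoxa3 above Hoxb5. From E13.5 to P8, Hoxb2 stood at 68.5 CPM (66.8 to 70.2), 60.8 (56.8 to 64.9), 89.3 (77.1 to 103) and 169 CPM (133 to 211), with 118 and 116 CPM in the libraries labelled control and null. Hoxb4 stood at 98.6, 45.6, 79.0 and 88.7 CPM over the time course and at 159 and 146 CPM in the whole lungs. Hoxa5 stood at 118, 42.6, 65.5 and 75.7 CPM in the sorted libraries and at 148 and 110 CPM in those labelled control and null. The library labelled control held the highest mesenchymal Hoxb4 and Hoxa5, and E15.5 the lowest. Hoxb3 ran from 28.5 to 62.0 CPM and Hoxb5 from 17.6 CPM at E15.5 to 75.7 CPM at P8. Hoxb6, which lies beside Hoxb5 in the cluster, stood at 11.0 CPM (10.3 to 11.7), 15 (13.1 to 17.1), 28.1 (21.4 to 36.1) and 60.6 CPM (40.2 to 87.5) over the time course, and at 48.4 and 41.0 CPM in the whole lungs. Hoxb8 reached 12.0 and 11.2 CPM in the libraries labelled control and null, and no more than 8.80 CPM in the sorted ones.

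Epithelial and immune cells of the whole lungs carried little Hox RNA. No member reached 10 CPM in them, and all members together summed to 12.0 and 9.33 CPM in epithelial cells and 11.0 and 9.12 CPM in immune cells, in the libraries labelled control and null. Their median depths of 13358 to 17057 UMIs were above those of ECs (7349 and 8270) and of mesenchymal cells (7133 and 8284.5). Hoxb4 was the highest member in immune cells, at 6.13 and 3.31 CPM, against 159 and 146 CPM in mesenchymal cells of the same libraries.

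In 5 of 6 libraries more of the members than not were at least 2-fold higher in mesenchymal cells than in ECs, and Hoxa5 and, in the sorted E18.5 library, Hoxa4 went the other way. A gene was counted where its level differed at least 2-fold (log2 ratios add 0.5 CPM) and reached 10 CPM in 1 of the gates. At E13.5, 7 of 10 members that met this minimum were higher in mesenchymal cells and 0 lower, where 13.4% of all genes were higher and 12.1% lower. The E15.5 library had 7 of 11 higher and 1 lower (14.3% and 11.3% of all genes), the sorted E18.5 library 4 of 9 higher and 2 lower (15.5% and 14.8%), and that of P8 7 of 11 higher and 1 lower (17.3% and 16.9%). The libraries labelled control and null each had 8 of 11 higher and 0 lower, against 16.6% and 14.8% of all genes in the former and 15.7% and 14.8% in the latter. With a pseudocount of 5 CPM the calls of Hoxa2 and Hoxa7 at P8 (0.97 and 0.93), of Hoxa2 at E15.5 (0.75) and of Hoxa7 in the sorted E18.5 library (0.88) were lost, which left 5 of 11 higher at P8, no longer most of them. With the mean of per-cell CPM Hoxb4 (1.02) and Hoxb5 (1.08) passed 2-fold in the sorted E18.5 library as well. The shares of all genes under these alternatives are not given here. The median log2 ratio of these members ran from 0.81 to 2.17 over the libraries, and that of all genes from -0.12 to 0.02.

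Hoxb2 and Hoxb3 were higher in mesenchymal cells of all 6 libraries, Hoxb2 by a log2 ratio of 1.91 to 2.80 and Hoxb3 by 1.99 to 2.90. Hoxb6 was far higher in mesenchymal cells in all 6 libraries: its EC levels of 0.884, 0.377, 0.255 and 0.409 CPM over the time course stood against 11.0, 15, 28.1 and 60.6 CPM in mesenchymal cells. Hoxa5 went the other way in the sorted libraries after E13.5, with log2 ratios of -1.80 (-1.93 to -1.70), -1.49 (-1.75 to -1.26) and -1.34 (-1.87 to -0.87) in order of age. At E13.5 and in the libraries labelled control and null its gates were close, at -0.05, -0.19 and -0.33. Hoxa3 differed by less than 2-fold in all 6 libraries, with log2 ratios between -0.02 and 0.50. Intervals of ratios are exact conditional binomial intervals of the plain ratio, without the added 0.5 CPM, so a printed ratio can lie off their center.

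Mesenchymal RNA carried into EC droplets was gauged from the 6 mesenchymal check genes. Their EC level ranged over these genes from 2.46% to 5.89% of their mesenchymal level at E13.5, and in the next sorted libraries from 0.205% to 2.04% and from 0.0737% to 0.667%. The 4 genes above 10 CPM at P8 ranged from 0.0553% to 0.457%. In the libraries labelled control and null the ranges were 0.515% to 6.09% and 0.724% to 3.29%. The Hoxb6 level in ECs was 0.732% and 1.18% of the mesenchymal one in those 2 libraries, and lay inside these ranges. In the sorted libraries from E15.5 on it was 2.52%, 0.910% and 0.675%, each just above the range of the check genes. At E13.5 Hoxb6 had 1 UMI in ECs, too few to place. Hoxb2 in ECs was 14.1% to 26.1% of its mesenchymal level over all libraries, above those ranges. The SoupX-adjusted values of the authors, which remove an estimate of free RNA, took Hoxb2 in ECs from 18.5 to 1.10 CPM in the library labelled control and from 20.7 to 10.7 CPM in that labelled null. Hoxb3 in ECs went from 7.86 to 1.03 CPM in the former, whereas Hoxa5 went from 170 to 234 CPM. That adjustment removed 40.0% of all UMIs in the library labelled control and 18.5% in that labelled null, so the EC levels of Hoxb2 and Hoxb3 in the whole lungs depend on whether it is made. In ECs of the library labelled control it also took Hoxb4 from 39.1 to 22.9 CPM, beside Hoxb5 at 23.4 CPM, Hoxa2 to 1.34 CPM and the cluster A share from 67.9% to 84.2%. In ECs of the library labelled null it left Hoxb3 at 2.83, Hoxb4 at 31.5, Hoxa2 at 4.87 and Hoxa5 at 157 CPM. The cluster A share there went from 66.0% to 74.2%.

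Over time, 3 EC levels differed at least 2-fold between neighboring time points. From E13.5 to E15.5 Hoxa4 was lower, with a log2 ratio of -1.02 (-1.59 to -0.45), the only one of 6 members that met the minimum, and 0 were higher. Among all genes 3.59% were lower and 3.19% higher in that step. This ratio rests on 161 ECs at E13.5 and passed 2-fold neither with the mean of per-cell CPM nor with stricter gates. From E15.5 to E18.5 Hoxb5 was higher, from 4.49 CPM (4.06 to 4.96) to 19.9 CPM (18.8 to 21.1), a log2 ratio of 2.03 (1.98 to 2.32). It was 1 of 6 members, with 0 lower, where 9.26% of all genes were higher and 4.57% lower. From E18.5 to P8 Hoxa7 was higher, from 4.34 CPM (3.83 to 4.91) to 16.9 CPM (15.9 to 18), a log2 ratio of 1.85 (1.76 to 2.17). It was 1 of 7 members, with 0 lower, against 4.26% and 4.15% of all genes. The median log2 ratio of the members was -0.30, 0.54 and 0.06 in the 3 steps, and that of all genes -0.07, 0.19 and 0.04.

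Both later gains were also seen inside narrower marker ranges, from which cells that met several ranges were left out. Hoxb5 differed between E15.5 and E18.5 by a log2 ratio of 1.89 (1.73 to 2.34) in arterial-range ECs, which hold at least 3 UMIs of Gja4, Gja5 and Dkk2, and by 1.91 (1.61 to 2.39) in general capillary-range ECs, with at least 4 of Gpihbp1, Kit and Aplnr. The general capillary range was weakly set off in the sorted libraries by its check genes: at E15.5 Plvap stood at 251 CPM inside it and 231 CPM in all other cells, Cd93 at 349 and 300 CPM, and Sema3c at 0.473 and 6.46 CPM. In the whole lungs Plvap and Cd93 were higher inside it, but Sema3c was lower, at 11.5 CPM inside and 34.1 CPM outside in the library labelled control and 13.7 and 36.5 CPM in that labelled null. Hoxa7 in arterial-range ECs stood at 6.12 CPM before birth and 25.3 CPM after it, and at 1.89 and 16.8 CPM in the general capillary range. Hoxb2 and Hoxb4 were also higher at E18.5 than at E15.5 in all ECs, by log2 ratios of 0.78 (0.69 to 0.92) and 0.76 (0.69 to 0.85), short of 2-fold. Hoxa4 in arterial-range ECs was lower at E15.5 than at E13.5 by a log2 ratio of -0.84 (-1.44 to -0.20), short of 2-fold. In that range Hoxa4 was higher at E18.5 than at E15.5, by 0.52 (0.35 to 0.71). Its P8 over E18.5 ratio there was 0.24, with an interval of -0.01 to 0.49 that held 0.

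**Figure D3:**
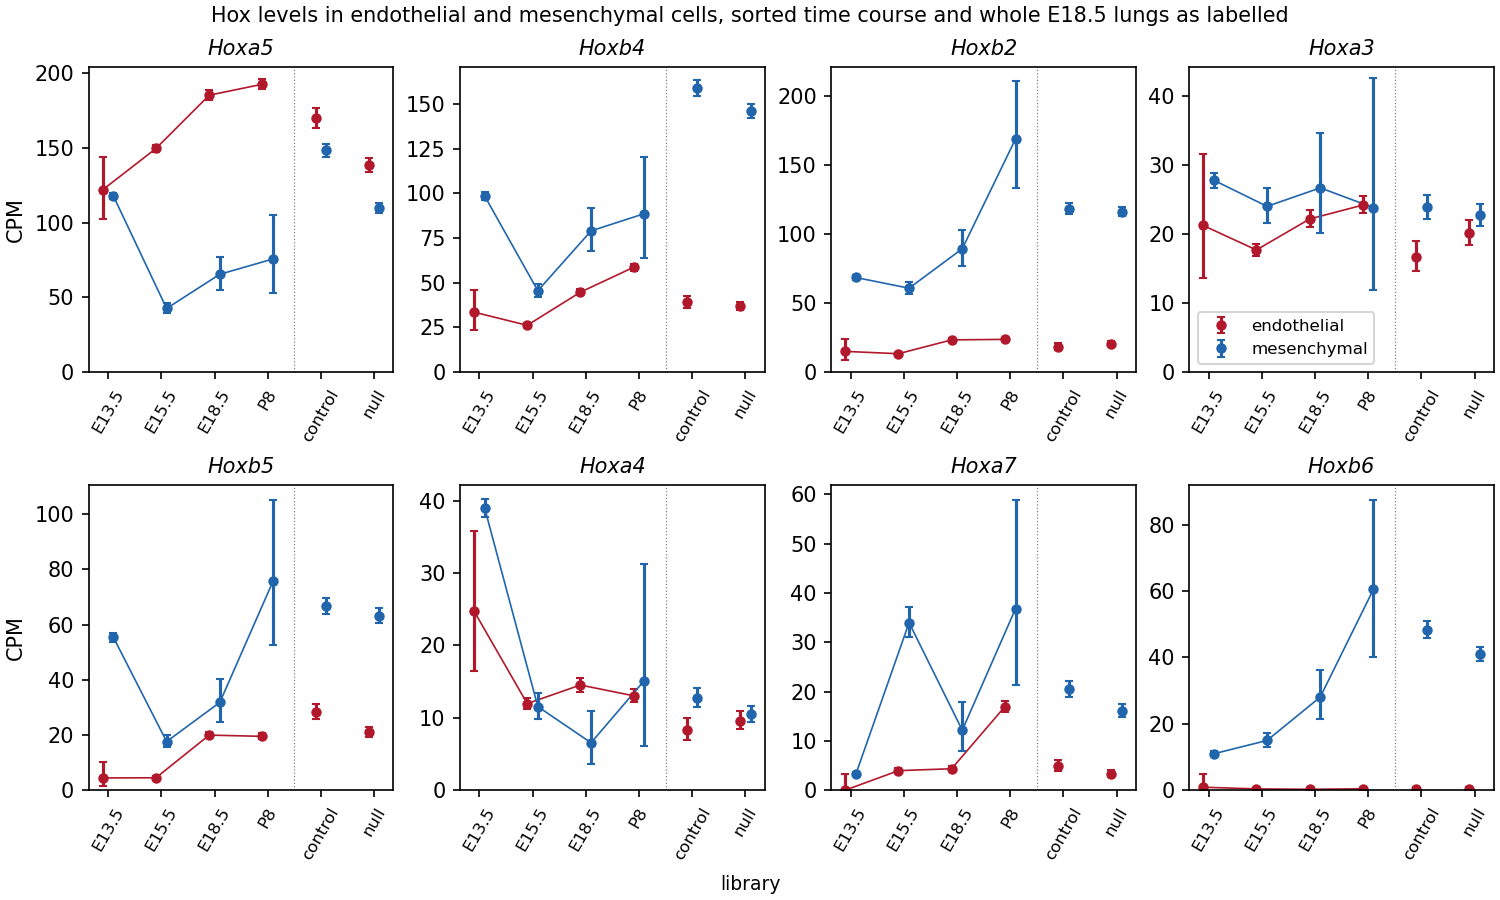
Level in CPM (linear axes from 0, 1 panel per gene) of 8 Hox genes in ECs and mesenchymal cells, with lines joining the sorted libraries in order of age and the whole lungs as labelled to the right. Bars are exact 95% Poisson intervals. In ECs Hoxb5 steps up at E18.5 and Hoxa7 at P8, while mesenchymal Hoxa7 is high at E15.5 and again at P8.

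Between E13.5 and E15.5 the mesenchymal code shifted from groups 2 to 5 toward higher groups. Groups 6 and above went from 5.38% to 28.7% of the Hox UMIs, and groups 9 and above from 0.623% to 2.08%. The makeup of the gate differed as well, with Tcf21 at 85.4 and 29.1 CPM and Dcn at 525 and 1580 CPM. Its part in the shift was not tested. Of 12 members at the minimum, 7 were at least 2-fold lower at E15.5 (4.35% of all genes) and 2 higher (6.95%), and their median log2 ratio was -1.06 against -0.12 over all genes. The lower ones were Hoxa2, Hoxa4, Hoxa5, Hoxb3, Hoxb4, Hoxb5 and Hoxc4, all of groups 2 to 5, with Hoxa4 at -1.71 (-1.99 to -1.53) and Hoxa5 at -1.46 (-1.59 to -1.35). Hoxb3, at -1.01, fell short of 2-fold with a pseudocount of 5 CPM (-0.91) and without barcodes shared between libraries (-0.99), and Hoxc4 with that pseudocount (-0.73). The higher ones were group 7 genes: Hoxa7 stood at 3.24 CPM at E13.5 (2.88 to 3.63) and 34.0 CPM at E15.5 (31 to 37.1), and Hoxb7 at 2.45 and 16.4 CPM. Among adventitial fibroblast-range cells alone (at least 3 UMIs of Mfap5, Dpt and Col14a1, 758 and 646 cells), Hoxa7 gave 3.01 (2.54 to 3.84) and Hoxa5 -1.64 (-1.86 to -1.44). In smooth muscle-range cells, with at least 3 UMIs of Myh11 and Cnn1, Hoxa7 stood at 0.968 and 29.4 CPM and Hoxa5 at 49.4 and 22.5 CPM. Pericyte-range cells, with at least 3 UMIs of Higd1b, Cox4i2 and Notch3 (948 and 77 cells), had the same directions, at 3.94 (3.34 to 5.22) for Hoxa7 and -1.60 (-2.47 to -0.89) for Hoxa5. Mesenchymal ranges were drawn among cells with 0 UMIs of Pecam1 and Cdh5, whatever their collagen counts.

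From E15.5 to E18.5, 0 of 11 mesenchymal members were at least 2-fold higher and 2 were lower, Hoxa7 at -1.44 (-2.11 to -0.91) and Hoxb7 at -1.47 (-2.52 to -0.72), where 8.08% of all genes were higher and 3.41% lower. From E18.5 to P8, 6 of 11 were higher (Hoxa2, Hoxa4, Hoxa7, Hoxb5, Hoxb6 and Hoxb7) and 0 lower, against 10.3% and 9.56% of all genes. The median log2 ratios of the members were 0.26 and 1.10, and those of all genes 0.05 and 0.13. Both steps rest on 232 cells at E18.5 and the latter on 59 cells at P8. The interval of Hoxa4 in the last step, -0.34 to 2.61, held 0, and with the mean of per-cell CPM 3 members instead of 6 were higher. From E15.5 to E18.5 that mean gave 3 higher instead of 0, Hoxb4 at 1.07, Hoxb5 at 1.35 and Hoxb6 at 1.20. It also put Hoxa2 past 2-fold lower, at -1.10. Shares of all genes under that mean are not given here.

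Among ECs, Hoxa4 was higher in arterial-range cells than in the general capillary range. Its arterial-range level from E15.5 on was 16.4, 23.7 and 28.0 CPM, and 17.8 in the library labelled control and 19.0 in that labelled null. Its general capillary-range level was 6.94, 6.79, 6.08, 8.37 and 6.65 CPM in the same libraries. The arterial range was thus higher in 5 of 5 libraries, with log2 ratios of 1.18 (0.91 to 1.58), 1.73 (1.41 to 2.21), 2.12 (1.72 to 2.72), 1.05 (0.29 to 1.86) and 1.44 (0.96 to 2.08). Hoxa5 was higher in the arterial range in the same 5 libraries by smaller log2 ratios of 0.24 to 0.55. Hoxb5 was lower there in 2 of the 4 libraries in which it was compared, by -0.69 (-0.97 to -0.44) at E18.5 and -0.67 (-1.14 to -0.26) in the library labelled null, while the intervals at P8 and in the library labelled control held 0. Hoxb2 differed by at most 0.48 in any of the 5. Hoxb4 was higher in the arterial range at E15.5 and sorted E18.5, by 0.45 (0.27 to 0.66) and 0.23 (0.05 to 0.41). In the library labelled null it was higher by 0.65 (0.37 to 0.94), while its intervals at P8 and in the library labelled control held 0. At P8 Hoxa7 was higher by 0.57 (0.24 to 0.93), and Hoxa2 gave 0.22 with an interval that held 0. Hoxa3 was higher in the arterial range by 0.30 to 0.97, with an interval that held 0 in the library labelled null. Hoxb3 was compared in the whole lungs and was higher in the arterial range there, by 1.72 (0.91 to 2.70) and 1.19 (0.63 to 1.90) in the libraries labelled control and null. These are unadjusted counts, and SoupX adjustment left Hoxb3 over all ECs at 1.03 and 2.83 CPM in these 2 libraries.

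Car4 capillary-range ECs, with at least 4 UMIs of Car4, Ednrb and Apln, had less Hoxa5 than the general capillary range. It stood at 95.1 against 167 CPM in the sorted E18.5 library, 82.5 against 179 CPM in the P8 library and 65.6 against 126 CPM in the library labelled null, with log2 ratios of -0.81 (-1.02 to -0.62), -1.11 (-1.37 to -0.87) and -0.94 (-1.44 to -0.48). Hoxb5 was higher in the Car4 range at E18.5, by 0.62 (0.27 to 0.98), and at P8, by 0.71 (0.24 to 1.20). Of the check genes of this range, Tbx2 and Kdr were higher inside it than in all other cells of the 3 libraries, while Fibin was lower at E18.5, at 16.0 against 23.2 CPM, and in the library labelled null, at 11.5 against 282 CPM. In that library, with 72 cells in the range, the Hoxb5 ratio was -0.60 and its interval of -1.70 to 0.30 held 0.

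**Figure D4:**
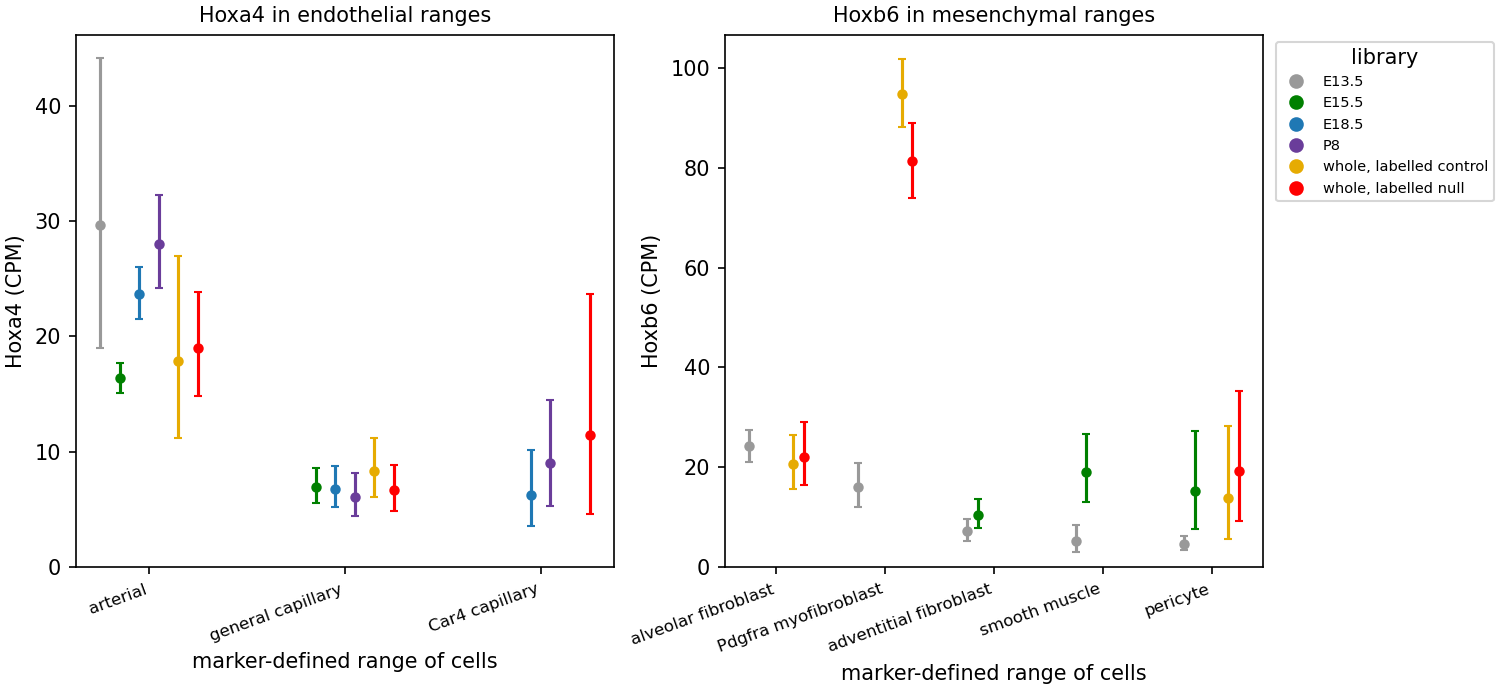
Level in CPM (linear axes from 0) of Hoxa4 in EC ranges and of Hoxb6 in mesenchymal ranges, 1 point per library with at least 50 cells in the range, with exact 95% Poisson intervals as bars. Hoxa4 lies at 16.4 CPM or more in the arterial range and at 8.37 CPM or less in the general capillary range, and Hoxb6 lies at 94.8 and 81.3 CPM in the Pdgfra myofibroblast range of the whole lungs.

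In the mesenchyme of the whole lungs, several cluster B genes were higher in Pdgfra myofibroblast-range cells (at least 3 UMIs of Fgf18, Tgfbi and P2ry14) than in alveolar fibroblast-range cells (at least 3 UMIs of Tcf21 and Wnt2). Hoxb6 stood at 94.8 against 20.6 CPM in the library labelled control and at 81.3 against 22.0 CPM in that labelled null, log2 ratios of 2.18 (1.82 to 2.61) and 1.86 (1.46 to 2.33). Hoxb2 gave 1.46 and 1.89, Hoxb4 1.41 and 1.58, and Hoxb5 1.36 and 1.33. Of cluster A, Hoxa2 was also higher, by 1.08 and 1.56 with both intervals above 0, Hoxa5 gave 0.28 and 0.24, and the intervals of Hoxa3 and Hoxa4 held 0 in both libraries. At E13.5 the same marker counts separated the cells less: Hhip, a further myofibroblast gene, stood at 32.2 CPM in the Pdgfra range against 22.9 CPM in other cells, and at 1441 against 299 CPM in the library labelled control. The E13.5 ranges, of 423 and 1004 cells, gave -0.58 (-1.05 to -0.17) for Hoxb6, -0.47 (-0.67 to -0.29) for Hoxb5, -0.00 (-0.21 to 0.20) for Hoxb2 and 0.06 (-0.10 to 0.22) for Hoxb4. Whether the E13.5 and E18.5 ratios differ was not tested.

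Adventitial fibroblast-range and smooth muscle-range cells differed in opposite ways for Hoxa5 and Hoxb4. Hoxa5 was higher in the adventitial range at E13.5, at 148 against 49.4 CPM, and at E15.5, at 47.4 against 22.5 CPM. Hoxb4 was lower there, at 80.9 against 122 CPM and 44.1 against 62.4 CPM, with log2 ratios of -0.59 (-0.79 to -0.40) and -0.49 (-0.84 to -0.16). Hoxa4, the paralogue of Hoxb4, went with Hoxa5, at 1.16 (0.79 to 1.59) and 1.27 (0.42 to 2.39), and Hoxb5, the paralogue of Hoxa5, went with Hoxb4 at E15.5, at -1.01, while its E13.5 interval of -0.53 to 0.13 held 0.

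Members of the posterior groups and of clusters C and D were mostly low over whole gates, and some of them were higher in ranges of cells that hold a part of a gate. These ranges were delimited by marker counts after the values had been seen, so their levels are descriptions. In ECs with at least 3 UMIs of the lymphatic genes Prox1, Mmrn1 and Reln, Hoxd8 and Hoxd9 were high. At E18.5 this range held 114 cells, or 1.26% of ECs, with Hoxd8 at 75.4 CPM (60.4 to 93.0) against 1.32 CPM (1.04 to 1.65) in all other ECs, and Hoxd9 at 65.9 CPM (51.9 to 82.4) against 0.226 CPM. The range held 53.4% of the EC Hoxd8 UMIs and 85.4% of the Hoxd9 UMIs. Ccl21a, a chemokine of lymphatic endothelium, stood at 8569 CPM inside the range and 1.35 CPM outside it. In the library labelled null, 20 cells gave 68.7 CPM of Hoxd8 and 77.7 CPM of Hoxd9 against 0.408 and 0.0408 CPM outside. At E15.5 the 231 cells gave lower levels, 8.76 CPM (5.99 to 12.4) of Hoxd8 and 7.12 CPM (4.65 to 10.4) of Hoxd9, and Ccl21a stood at 692 CPM. That range held 11.6% of the Hoxd8 UMIs. Hoxa5 went the other way at E18.5, at 52.9 CPM inside the range and 188 CPM outside.

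ECs with at least 20 UMIs of Eln, the elastin gene of large vessels, held the posterior cluster A genes at E15.5. In these 918 cells, or 10.3% of ECs, Hoxa9 stood at 33.5 CPM (29.4 to 38.1) against 0.324 CPM (0.211 to 0.474) in other ECs, and Hoxa10 at 12.7 CPM (10.2 to 15.6) against 0.124 CPM. They held 90.3% of the EC Hoxa9 UMIs and 90.1% of the Hoxa10 UMIs. Hoxa7 stood at 21.0 against 2.43 CPM and Hoxa4 at 43.0 against 9.19 CPM. At E18.5, Hoxa9 inside the range was 4.37 CPM (2.63 to 6.83), and at P8 it had no UMI among 222 cells, a limit of 1.43 CPM at 3 counts. The 31 and 87 cells of the libraries labelled control and null held none either, with limits of 8.97 and 2.60 CPM, the former above the E18.5 level. Hoxa4 stayed high inside the range throughout, at 43.0 and 47.2 CPM in the later sorted libraries, and 53.8 and 41.6 in the libraries labelled control and null, against 7.25 to 12.2 CPM outside. Mgp, Bgn and Fbln2, genes of vessel wall matrix, were higher inside this range in all 5 libraries, with Mgp at 2868 against 65.5 CPM at E15.5.

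Cluster C was higher in mesenchymal cells with at least 5 UMIs of Crabp1 and Foxd1, 2608 cells (23.4% of the gate) at E13.5 and 206 (11.5%) at E15.5. Hoxc4 stood at 22.7 CPM (20.7 to 24.8) inside and 6.90 CPM (6.30 to 7.55) outside at E13.5, and at 17.8 (12.4 to 24.7) and 2.30 CPM (1.54 to 3.31) at E15.5. The range held 50.5% and 54.7% of the Hoxc4 UMIs, and at E13.5 Hoxc4 also stood at 20.0 CPM in adventitial fibroblast-range and 16.0 CPM in Pdgfra myofibroblast-range cells. Hoxc5 stood at 15.5 against 2.71 CPM and Hoxc6 at 10.9 against 0.996 CPM at E13.5. At E15.5 Hoxc8 was the highest cluster C member in these cells, at 37.6 CPM (29.5 to 47.2) against 5.56 CPM, followed by Hoxc6 at 22.4 against 5.96 CPM. In adventitial fibroblast-range cells at E15.5, Hoxc8 and Hoxc6 also stood at 15.6 and 10.6 CPM. Inside the Crabp1 and Foxd1 range Hoxc9 went from 3.40 CPM at E13.5 to 8.13 CPM at E15.5. Tcf21, a lung mesenchyme regulator, was lower inside the range than outside, at 33.3 against 102 CPM and 5.59 against 32.8 CPM, and Dcn was higher, at 809 against 437 CPM and 3460 against 1287 CPM.

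**Figure D5:**
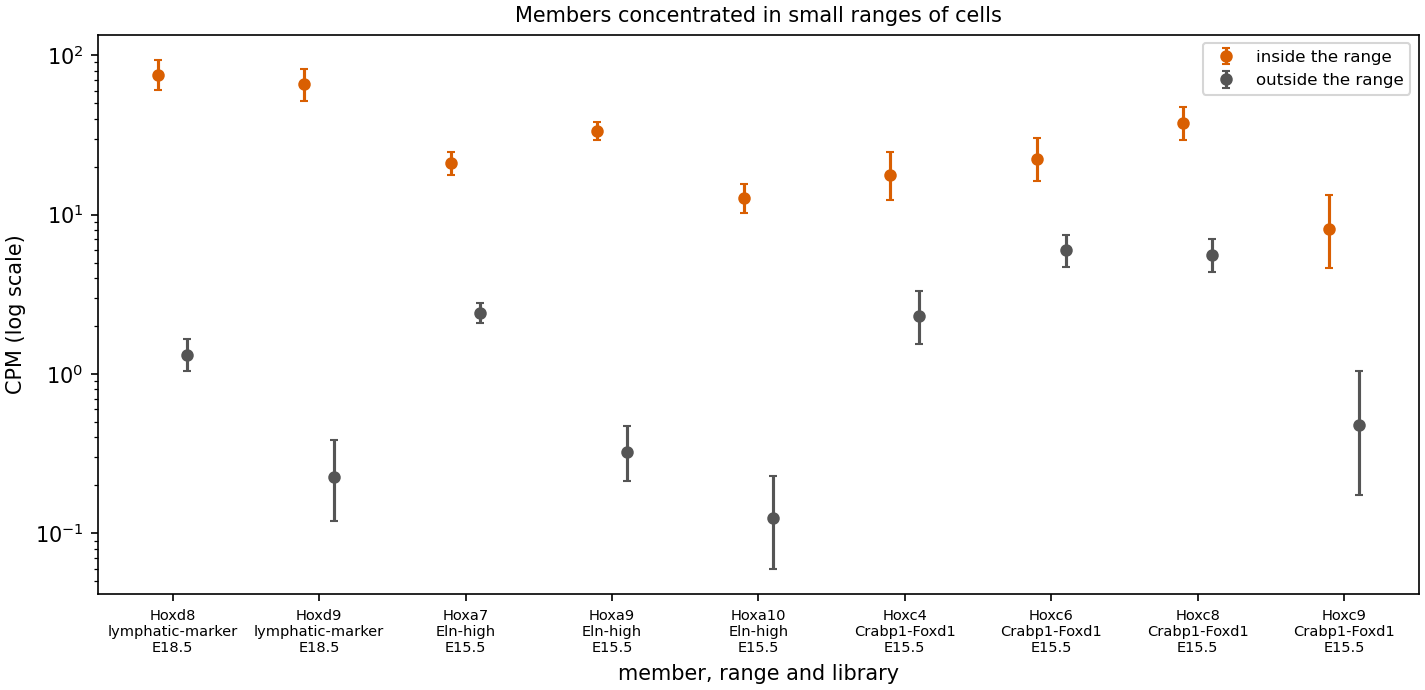
Level in CPM (log axis) of 9 Hox genes inside and outside a marker range in which the level of each was higher, in the library named under it, with exact 95% Poisson intervals as bars. Inside the lymphatic-marker range at E18.5, Hoxd8 and Hoxd9 lie at 75.4 and 65.9 CPM, and both lie under 1.4 CPM outside it.

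Of the members not yet described, Hoxa6 peaked at 3.06 CPM in mesenchymal cells of the library labelled control, Hoxb9 at 1.37 CPM in mesenchymal cells at E15.5, and Hoxd3 and Hoxc10 at 0.882 and 0.550 CPM. Hoxb1, Hoxd1, Hoxa13, Hoxd10, Hoxd13, Hoxd4 and Hoxc13 stayed at or under 0.276 CPM in every gate.

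Comparing the whole lungs asks what loss of Cxcl12 does to the lung. Since Cxcl12 went against the labels, no direction is assigned to a genotype. Over whole gates no member at the 10 CPM minimum passed 2-fold. Among ECs 0 of 5 members at the minimum were at least 2-fold higher and 0 lower in the library labelled null, where 0.277% of all genes were higher and 0.289% lower. Among mesenchymal cells 0 of 11 were higher and 0 lower, against 0.466% and 0.233% of all genes. The median log2 ratios of null over control, as labelled, were -0.08 in ECs and -0.22 in mesenchymal cells for the members, and -0.02 and -0.05 for all genes.

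Smaller differences exceeded counting error, but with 1 library each the spread between lungs is unknown. Hoxa5 was lower in the library labelled null by a log2 ratio of -0.29 (-0.37 to -0.21) in ECs and -0.43 (-0.49 to -0.37) in mesenchymal cells. Inside ranges it gave -0.51 (-0.71 to -0.32) in arterial-range ECs, -0.49 (-0.63 to -0.36) in general capillary-range ECs and -0.36 (-0.49 to -0.24) in Pdgfra myofibroblast-range cells. In alveolar fibroblast-range cells Hoxa7 passed 2-fold, at 27.5 CPM in the library labelled control and 11.7 CPM in that labelled null, a log2 ratio of -1.20 (-1.92 to -0.59). In the 61 and 56 pericyte-range cells Hoxa3 also did, at 23.6 and 5.77 CPM, the latter from 3 UMIs, a log2 ratio of -1.94 (-4.50 to -0.14). In the same cells Hoxb8 lay the other way, at 9.82 CPM in the library labelled control and 23.1 CPM in that labelled null, from 5 and 12 UMIs, a log2 ratio of 1.19 whose interval (-0.38 to 3.09) includes 0. These members were picked from all member ratios in the ranges. The share of all genes past 2-fold inside the ranges was not counted. Hoxb5 gave -0.42 (-0.62 to -0.24) in ECs and -0.08 (-0.16 to 0.01) in mesenchymal cells. Hoxa2 and Hoxa7 were lower in mesenchymal cells, at -0.44 and -0.34, and Hoxb2 was level at -0.03 (-0.09 to 0.04). With SoupX-adjusted values Hoxb2 in ECs gave 2.80, the only member at the minimum past 2-fold, after the unequal removal described above.

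The genes that work with Hox proteins were read from 4 lists. Among the 9 cofactors, Meis2 stood in ECs at 155, 154, 290 and 207 CPM over the time course. In mesenchymal cells it stood at 220 CPM at E13.5 and 299 CPM at E15.5 but at 80.2 CPM or less later, and Meis1 at 239, 98.5, 80.4 and 77.9 CPM. Meis1 and Pbx3 were at least 2-fold lower in mesenchymal cells at E15.5 than at E13.5. These were 2 of 7 cofactors at the minimum, where 4.35% of all genes were lower. Meis2 was lower at E18.5 than at E15.5, 1 of 7 against 3.41% of all genes, and 0 were higher in either step. Meis3 lay at 16.0 to 26.0 CPM in mesenchymal cells and under 0.5 CPM in ECs of every library but E13.5, where it had no UMI (limit 2.65 CPM), and was at least 2-fold higher in the former in all 6. In each library 1 to 3 of 7 cofactors were higher in mesenchymal cells, beside 13.4% to 17.3% of all genes. Higher in ECs were 0 or 1 of them, beside 11.3% to 16.9% of all genes. In ECs Meis1 was at least 2-fold lower at E15.5 (11.3 CPM) than at E13.5 (30.9 CPM) and higher at E18.5 (40.7 CPM), and 1 of 6 cofactors at the minimum passed 2-fold in each of those steps (3.59% of all genes lower in the former, 9.26% higher in the latter) and 0 between E18.5 and P8. The median log2 ratios of the cofactors were -0.32, 0.53 and -0.11.

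Of 16 cluster non-coding and neighboring genes listed, 9 were in the tables. Hotairm1, an RNA from the anterior end of cluster A, was the highest, at 116, 92.7, 89.3 and 55.5 CPM in ECs from E13.5 to P8 and at 30.3 to 86.0 CPM in mesenchymal cells. Hoxaas3, antisense to Hoxa3 to Hoxa7, lay at 19.7 to 44.6 CPM in ECs and 8.65 to 23.8 CPM in mesenchymal cells. Hoxb5os, antisense to Hoxb5 and Hoxb6, had the mesenchymal pattern of Hoxb6: 8.25 to 30 CPM in mesenchymal cells and at most 2.05 CPM in ECs. The library kit keeps strand, though the counting setting is not given in the sources used here. Of the list, 2 or 3 genes met the minimum in each EC step and 0 passed 2-fold, with median log2 ratios of -0.29, -0.25 and -0.75. Hoxaas3 and Hoxb3os were lower in mesenchymal cells at E15.5 than at E13.5, at 11.1 against 23.8 and 6.19 against 16.8 CPM, and Hoxb5os was higher at E18.5 than at E15.5. These were 2 of 4 genes at the minimum in the former step (4.35% of all genes lower) and 1 of 3 in the latter (8.08% higher).

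Of the 10 chromatin regulators, Ezh2, the Polycomb methyltransferase, was high at E13.5 and lower later, at 113, 85.5 and 49.3 CPM in ECs up to E18.5. Kmt2a, a trithorax methyltransferase, lay at 43.7 to 71.7 CPM in ECs. No regulator passed 2-fold between neighboring EC time points, and in mesenchymal cells 3 of 9 were higher (Bmi1, Kdm6a and Kdm6b) and 1 lower (Ezh1) at P8 than at E18.5, against 10.3% and 9.56% of all genes. The P8 levels come from 59 cells, with 13 UMIs each for Bmi1 and Kdm6a and 3 for Ezh1. The medians of the regulators in the EC steps were -0.05, 0.33 and 0.02. Of the 8 retinoid and Cdx regulators, the receptors Rara and Rarg were the highest in ECs beside Cyp26b1, an enzyme that degrades retinoic acid. Cyp26b1 stood at 47.7, 18.1, 98.6 and 59.3 CPM in ECs over the time course, against 2.16 to 6.15 CPM in mesenchymal cells of all libraries. Aldh1a2, which makes retinoic acid, stood at 43.2 CPM in mesenchymal cells at E13.5 and 9.35 CPM at E15.5, and at most 0.0571 CPM in ECs from E15.5 on, with no UMI in those of E13.5 (limit 2.65 CPM). Cyp26b1 was lower in ECs at E15.5 than at E13.5, 1 of 3 at the minimum against 3.59% of all genes. Cyp26b1 and Rarg, 2 of 3, were higher in ECs at E18.5 than at E15.5, against 9.26% of all genes. In mesenchymal cells Rarg, 1 of 3, was higher at E18.5 than at E15.5, against 8.08% of all genes. Rara and Rarg, 2 of 2, were lower in mesenchymal cells at P8 than at E18.5, against 9.56% of all genes. No gene of any list at the 10 CPM minimum passed 2-fold between the whole lungs in any gate. Cdx2 had no UMI in ECs or mesenchymal cells of any library.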

How the data were processed

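Droplet libraries (10x 3′ v3) of the 6 samples were aligned by the authors with Cell Ranger to mm10. The submitters' processing notes name Cell Ranger 3.1 and Seurat 3.2.2, and the matrix headers name version 3.0.2 for E15.5, E18.5 and P8 and 3.1.0 for the others. The authors deposited UMI counts per gene and called cell, without normalization, and for the whole lungs also expected counts, which are counts adjusted with SoupX and not whole. Neither carries a scaling for depth. Samples were grouped by their labels.

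Barcodes with under 700 genes, or with a mitochondrial share outside 0.5% to 10%, were dropped. Doublets were not removed by a caller, and the gates leave out cells with both marker sets. Whole-lung ECs and mesenchymal cells also needed 0 UMIs of Epcam, Cdh1 and Ptprc. Epithelial cells had at least 2 UMIs of Epcam and Cdh1, immune cells at least 3 of Ptprc, Laptm5 and Tyrobp, and both at most 2 of the collagens. Summed UMIs of gates or ranges of at least 50 cells were scaled to CPM with Python 3.11.15, numpy 2.4.6, scipy 1.17.1 and pandas 2.3.3, except that ranges added after seeing the data could be smaller. Shares of cells used cells thinned to 2000 UMIs, leaving out shallower cells. The ratio script was tested on simulated data. Genes that reached 10 CPM in 1 of the groups compared and differed 2-fold were counted. Members at 10 CPM in any gate were named in every library, of the lists the 2 highest genes and those past 2-fold, and the rest by ranges. Members, lists and tests were chosen with earlier results of these data known. The alternatives were other minimums, pseudocounts, gates, filters, CPM bases and SoupX-adjusted values. Proteins were not used here. The values of 1 cofactor gene are not reported here.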

Additional observations from a re-analysis of the deposited data

Results flagged for a closer look

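Hoxa4 was drawn out because its mesenchymal and endothelial levels stood in opposite order in different libraries. The log2 ratio of mesenchymal over endothelial cells was 0.64 (0.12 to 1.25) at E13.5 and 0.58 (0.31 to 0.92) in the library labelled control, with mesenchymal cells higher. It was -1.09 (-2.03 to -0.39) in the sorted E18.5 library, with ECs higher, and fell short of 2-fold with a pseudocount of 5 CPM (-0.76) and with stricter gates (-0.97). At E15.5, at P8 and in the library labelled null it was -0.05, 0.21 and 0.12, with intervals that held 0. The sorted E18.5 value rests on 232 mesenchymal cells. Those cells and the ECs beside them were selected by the Cxcl12 reporter, whereas the whole lung was not sorted. The arterial range, in which Hoxa4 was higher, held 3254 of 9024 sorted E18.5 ECs and 169 of 1675 in the library labelled control. The difference between the libraries was not tested, and the part of the sort in it was not tested.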

How the results depend on the processing

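No paired analysis was possible because each group had 1 library, so there were fewer than 2 replicates to pair between any groups. For the same reason no replicate could be left out. Of the counts of members recomputed under the alternatives, 310 stayed within 1.5 times and 29 moved, and no ratio called at 2-fold turned its direction. Of the shares of clusters and the levels and ratios of single members, 2596 were the same, 144 moved, 13 passed 2-fold only under the alternative and 31 no longer did.

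The number of members expressed depends on the minimum. At 20 CPM it was 2 in ECs and 6 in mesenchymal cells at E15.5, 4 in ECs at P8, 3 in ECs of the library labelled control and 7 in mesenchymal cells of that labelled null. At 5 CPM it was 8 in ECs of each whole lung. Without a minimum for ratios, ECs had 5 members higher at E15.5 than at E13.5, 3 lower at E18.5 than at E15.5 and 2 lower at P8 than at E18.5. Mesenchymal cells then had 7 higher at E15.5 than at E13.5, 12 lower at E18.5 and 3 lower at P8. Between mesenchymal cells and ECs it was 16 higher and 1 lower at E13.5, 14 and 4 at E15.5, 8 and 4 at E18.5, 2 lower in the library labelled null, and 1 EC member higher in that library than in the one labelled control. These additions are members under 10 CPM in both groups compared. The share of all genes past 2-fold without the minimum is not given here, so these counts are not read as a result about the members.

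With a pseudocount of 5 CPM, with the mean of per-cell CPM and with stricter gates, 0 members were lower in ECs at E15.5 than at E13.5. A pseudocount of 5 CPM and stricter gates each left 1 member lower in mesenchymal cells than in ECs at E18.5. The mean of per-cell CPM gave 3 members higher in mesenchymal cells at E18.5 than at E15.5 and 3 higher at P8 than at E18.5. SoupX-adjusted values gave 1 EC member at the minimum, Hoxb2, higher in the library labelled null, and under it Hoxa2 (1.55), Hoxb7 (1.30) and Hoxb3 (1.12). Shares of all genes past 2-fold are given only for the main settings and not for these alternatives. Beyond what each alternative changes by construction, the cause was not tested. Stricter gates gave no values for mesenchymal cells at P8, where they left under 50 cells. Depth limits the E13.5 ECs, where 3 counts equal 2.65 CPM, and the P8 mesenchymal cells, where they equal 6.49 CPM.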

Other observations

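Hoxb2 was higher in cycling cells, taken after seeing the data as those with at least 2 UMIs of Mki67 and Top2a. In ECs the cycling cells stood at 17.8, 15, 33.3 and 36.6 CPM from E13.5 to P8 against 13.9, 12.5, 22.3 and 22.3 CPM in the other ECs. In the libraries labelled control and null it was 24.3 against 17.2 CPM and 30.3 against 18.2 CPM. The direction was shared by 6 of 6 libraries, with log2 ratios of 0.25 to 0.71, and the E13.5 interval of -1.36 to 1.92, from 33 cycling cells, held 0. Hoxa5 was lower in cycling ECs of 5 libraries, by -0.22 to -0.44, and at 0.18 (-0.36 to 0.71) at E13.5. Cycling mesenchymal cells of the 5 libraries compared also had more Hoxb2, by log2 ratios of 0.35 to 0.49, of which the E18.5 one, from 23 cells, had an interval of -0.11 to 0.95.

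Hoxb9 was the only member of a posterior group with UMIs in epithelial cells and almost none in the other gates of the whole lungs. It stood at 1.04 CPM (0.498 to 1.91) and 1.19 CPM (0.512 to 2.34) in epithelial cells of the libraries labelled control and null, from 10 and 8 UMIs, had no UMI in ECs or immune cells, and stood at 0.0322 and 0.0546 CPM in mesenchymal cells.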
